A study of Mus musculus with 3 samples.

Results

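PHF10 is a subunit of PBAF, a SWI/SNF chromatin-remodeling complex. Its ChIP-seq peaks were examined at 7 genes of RNA-binding proteins in the adult mouse brain. The genes were Elavl3, Rbfox3 and Celf4, whose products are known from neurons, and Stau2, Cpeb2, Srsf7 and Hnrnpab, whose products are known from many cell types. They were chosen by the peaks that earlier results of these data had shown at their promoters, so the presence and the height of their peaks are given as a description and were not tested. A peak was assigned to a gene when it lay within 500 bp of the TSS of any of its transcripts in GENCODE M21 (mm10). All 7 genes had such a peak, out of 372 annotated genes in the whole data set, of which 298 were protein-coding (1.36% of all protein-coding genes), and nothing is read from this count since the peaks chose the genes. The 7 genes held 12 of the 392 peaks of both replicates, 6 in replicate 1 and 6 in replicate 2.

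The libraries were 2 immunoprecipitations with a non-commercial rabbit antibody to PHF10 and 1 with rabbit IgG as the pre-immune control, all from the brain of C57BL/6 mice at P120 (120 days), given as male C57BL/6J in the paper's methods. The paper's methods call the PHF10 samples biological replicates. No genotype or treatment was varied, so every comparison is between genes or between the replicates. The labels name the brain and the paper's methods the whole brain, while the deposited description names the cerebellum and a younger age, and the peak names carry the letters Cer. Brain chromatin mixes neurons and glia, so that more cells with PHF10 at a promoter and more PHF10 per cell cannot be told apart. Per the paper's methods the antibody recognizes every isoform of PHF10. Neither expression nor cell type was measured, and the division into neuronal and broadly expressed genes rests on general knowledge. None of 14 other neuronal marker genes (Snap25, Syt1 and Map2 among them) and none of 32 marker genes of astrocytes, oligodendrocytes, microglia and endothelium had a peak within 500 bp of a TSS, and over all protein-coding genes the share with one was 1.36%. The peaks at these lists therefore cannot be used to check the cell type. The paper names Map2 among genes with PHF10D on their mouse promoters in its ChIP-seq. The peak lists used here held no peak within 500 bp of a Map2 TSS, and the reason was not tested.

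RNA-binding proteins follow an mRNA from splicing to decay. In the nucleus, SR proteins and hnRNPs coat the new transcript and steer the choice of exons, and RBFOX and ELAVL proteins set neuronal splicing patterns. In the cytoplasm, ELAVL and CELF proteins act on mRNA stability, Staufen proteins on transport into dendrites, and CPEB proteins on polyadenylation and translation. Many of these genes start transcription at alternative promoters.

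The promoter sequences held DNA of 2 kinds, one rich in CpG and one made of a repeat of the dinucleotide GA. The sequences below are read 5′ to 3′ along the gene's strand in mm10. They comprise the 120 bases before the outermost TSS of the bound promoter for Elavl3, Rbfox3, Srsf7 and Cpeb2, the whole peak for Hnrnpab, and for Stau2 the 243 bases that the peaks of both replicates share. None of these bases lay in an annotated exon. The Rbfox3 and Srsf7 stretches lie inside the peak of replicate 1, the Elavl3 stretch runs past the peak edges, and the Cpeb2 stretch lies almost wholly before its peak. Capitals mark the TATA box (TATAAA), the CCAAT box and the GC box (GGGCGG), each on either strand, and stretches of at least 6 copies of GA.
Elavl3, chr9:22052024-22052143, minus strand: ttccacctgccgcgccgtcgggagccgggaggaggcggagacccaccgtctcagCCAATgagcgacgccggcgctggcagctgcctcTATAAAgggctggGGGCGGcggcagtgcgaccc
Rbfox3, chr11:118909573-118909692, minus strand: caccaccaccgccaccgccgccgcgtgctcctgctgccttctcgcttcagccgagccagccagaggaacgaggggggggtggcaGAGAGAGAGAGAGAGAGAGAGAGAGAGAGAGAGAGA
Stau2, chr1:16519415-16519657, minus strand: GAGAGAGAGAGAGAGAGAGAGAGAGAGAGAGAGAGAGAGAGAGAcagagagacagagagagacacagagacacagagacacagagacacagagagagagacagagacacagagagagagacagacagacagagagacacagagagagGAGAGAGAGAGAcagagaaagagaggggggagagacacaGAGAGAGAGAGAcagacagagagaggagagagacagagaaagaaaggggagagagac
Cpeb2, chr5:43233050-43233169, plus strand: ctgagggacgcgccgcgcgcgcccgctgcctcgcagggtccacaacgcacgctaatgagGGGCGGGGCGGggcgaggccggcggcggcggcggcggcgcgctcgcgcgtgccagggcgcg
Srsf7, chr17:80207308-80207427, minus strand: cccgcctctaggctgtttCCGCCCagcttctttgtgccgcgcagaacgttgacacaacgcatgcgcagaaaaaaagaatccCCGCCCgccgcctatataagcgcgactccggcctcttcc
Hnrnpab, chr11:51606867-51607115, minus strand: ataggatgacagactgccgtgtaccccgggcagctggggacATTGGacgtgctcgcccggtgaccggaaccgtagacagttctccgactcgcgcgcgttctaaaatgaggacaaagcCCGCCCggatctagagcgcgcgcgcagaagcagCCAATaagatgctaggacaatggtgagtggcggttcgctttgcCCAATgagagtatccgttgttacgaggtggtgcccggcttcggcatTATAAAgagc
The Cpeb2 stretch had 83.3% GC and 26 CpG dinucleotides, and the Elavl3 stretch 72.5% GC and 14 CpG. The Stau2 stretch had 51% GC and 0 CpG. It begins inside a longer GA repeat, which runs on upstream of the bases shown. The Rbfox3 stretch joined both kinds, with 8 CpG toward its 5′ end and a GA repeat at its 3′ end. That repeat is part of a run of 33 copies, which continues past the outermost TSS beyond the bases shown.

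Fold enrichment is the MACS2 value at the summit, in which the PHF10 fragments, scaled to the IgG library and raised by 1, are divided by the IgG fragments raised by 1. The number of fragments at a summit was solved from the fold and the p value, and the interval behind each fold is the exact 95% Poisson interval of that number, for counting error only. Replicate 1 had 251 peaks with a median fold of 5.85, and replicate 2 had 141 peaks with a median of 6.18. The PHF10 library was deeper than the IgG library, by a ratio of 1.38 in replicate 1 and 1.14 in replicate 2.

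**Figure D1:**
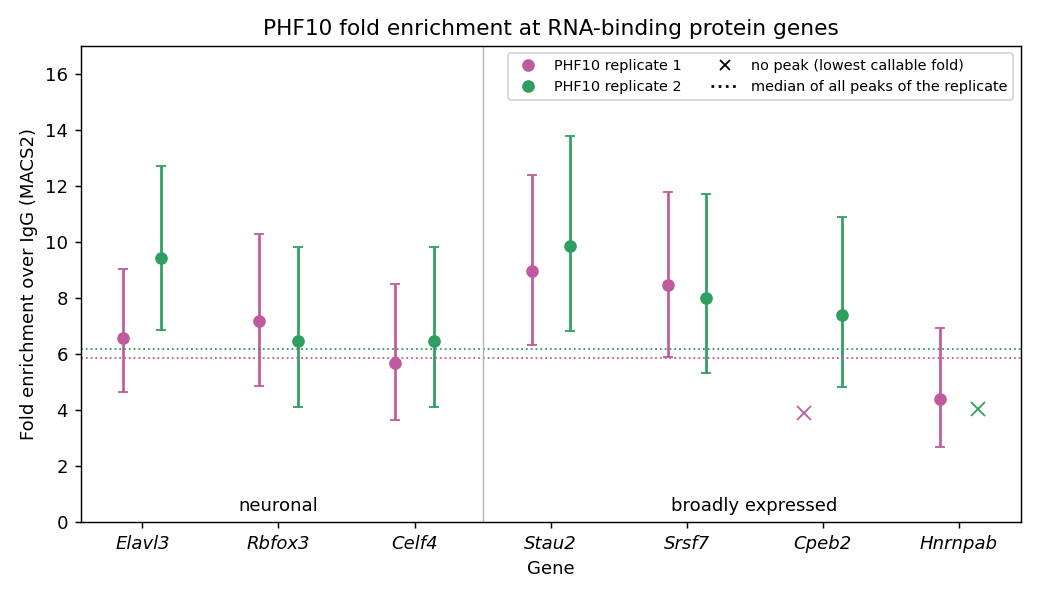
Fold enrichment of PHF10 over IgG at the 7 genes in each replicate. Points are the values of single peaks, and bars their 95% Poisson intervals (counting error only). Where a replicate had no peak, crosses mark the lowest fold past the p threshold over the genome-wide background. Dotted lines are the median of all peaks of the replicate. Stau2 was highest in both replicates, and the intervals of the replicates overlapped at each gene with both.

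Elavl3 encodes a neuronal member of the ELAVL family (HuC), which binds AU-rich elements of mRNAs. It had a peak in both replicates, with a fold of 6.58 (95% interval, 4.66 to 9.05) in replicate 1 and 9.43 (6.86 to 12.7) in replicate 2, from 35 and 42 fragments. The mean was 8.00 ± 2.01 (SD, n = 2). The replicates differed more here than at the other members, with replicate 2 higher by 43.3%, and their intervals still overlapped. The −log10 p given by MACS2 was 15.5 and 26.8, and −log10 q was 9.55 and 20.2. Elavl3 was the member where the IgG library itself had fragments above its genome-wide level, with a local background of 3 against 1.85 genome-wide, and the difference between the replicates came over the same background. Its plain ratio of scaled fragments to background was 8.44 and 12.2. The peaks were 349 and 355 bp wide and shared 317 bp, at rank 37 and 17 by width among the peaks of their replicates.

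Rbfox3 encodes a splicing regulator known as the neuronal nuclear antigen NeuN. It had a fold of 7.20 (4.87 to 10.3) in replicate 1 and 6.48 (4.10 to 9.82) in replicate 2, from 27 and 20 fragments over the genome-wide background, with a mean of 6.84 ± 0.508 (SD, n = 2). The −log10 p was 13.8 and 11.8, −log10 q was 8.07 and 6.17, and the widths were 260 and 275 bp.
Celf4 encodes a CELF protein that acts on the stability and translation of neuronal mRNAs. It had a fold of 5.68 (3.65 to 8.5) in replicate 1 and 6.48 (4.10 to 9.82) in replicate 2, from 21 and 20 fragments, with a mean of 6.08 ± 0.568 (SD, n = 2). The −log10 p was 9.80 and 11.8, −log10 q was 4.45 and 6.17, and the peaks were narrow, at 201 and 226 bp. Celf4 lay near the middle of the peaks, with 41.8% of the peaks of replicate 1 and 59.6% of those of replicate 2 below it by fold.

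Stau2 encodes a double-stranded RNA-binding protein that carries mRNAs into dendrites. It was the highest member in both replicates, with a fold of 8.98 (6.33 to 12.4) and 9.86 (6.81 to 13.8) from 34 and 31 fragments, a mean of 9.42 ± 0.621 (SD, n = 2). This placed it at rank 12 of the 251 peaks of replicate 1 and at rank 9 of the 141 peaks of replicate 2. The −log10 p was 19.3 and 22.8 and −log10 q was 13 and 16.4, with widths of 372 and 261 bp. Of the 89 sites that were called in both lists, 8 had a higher mean fold.
Cpeb2 encodes a cytoplasmic polyadenylation element-binding protein. It had a peak in replicate 2 alone, with a fold of 7.40 (4.82 to 10.9), 23 fragments, −log10 p of 14.9, −log10 q of 8.98 and a width of 218 bp. This was not a weak peak, since 76.6% of the peaks of replicate 2 had a lower fold. Replicate 1 listed none, although 14 fragments over the genome-wide background, a fold of 3.90, would have passed the p threshold there. No peak in either list was narrower than 200 bp, so the fragments at a summit alone do not decide whether a peak is listed.

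Srsf7 encodes an SR protein of splicing and mRNA export. It had the closest replicates of all members by fold, with 8.47 (5.90 to 11.8) and 8.02 (5.31 to 11.7) from 32 and 25 fragments, a mean of 8.24 ± 0.321 (SD, n = 2). It held rank 19 in replicate 1 and rank 19 in replicate 2. The −log10 p was 18.2 and 15.9, −log10 q was 12.0 and 10.0, and the widths were 283 and 358 bp.
Hnrnpab encodes an hnRNP that packages and transports mRNA. It had the lowest peak of the members, in replicate 1 alone, with a fold of 4.41 (2.67 to 6.94), 16 fragments, −log10 p of 6.21, −log10 q of 1.51 and a width of 249 bp. Of the peaks of replicate 1, 3.98% had a lower fold. In replicate 2, 12 fragments, a fold of 4.03, were needed to pass the p threshold over the genome-wide background, so that a peak of this height lay close to what could be called.

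Over the 5 members with a peak in both replicates, the log2 ratio of replicate 2 to replicate 1 ran from -0.15 to 0.52, with a median of 0.14, and 3 were higher in replicate 2. Over all 89 such sites the median was -0.04, with 38 higher in replicate 2. The summits of the replicates lay a median of 34 bp apart at the members and 34 bp apart over all shared sites, from 4 bp at Celf4 and 6 bp at Srsf7 to 51 bp at Stau2. The closest pair of folds outside RNA-binding protein genes, over the 2 replicates and at least 70 other sites, belonged to Btg1 for Elavl3 (6.60 and 8.78), Dusp5 for Rbfox3 (7.08 and 6.74), Ckb for Celf4 (5.88 and 6.45), Calm2 for Stau2 (8.98 and 10.2) and H2-DMa for Srsf7 (8.47 and 8.02).

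**Figure D2:**
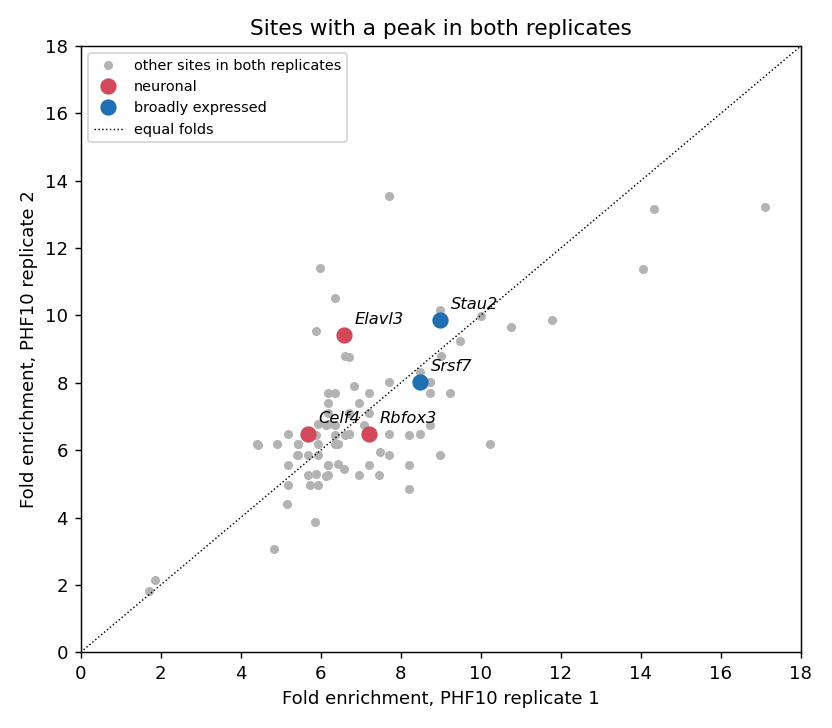
Fold enrichment in replicate 2 against replicate 1 at the 89 sites called in both lists (grey, other sites; red, neuronal members; blue, broadly expressed members; dotted line, equal folds). Elavl3 lay above the line and Rbfox3, Celf4, Srsf7 and Stau2 close to it.

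All 3 neuronal members and 2 of the 4 broadly expressed members (Stau2 and Srsf7) had a peak in both replicates. Of all 284 sites within 500 bp of a TSS, 84 did. Nothing is read from the counts by class, since the peaks chose the genes. The mean fold over genes was 6.98 for the neuronal members (6.08 to 8.00) and 7.37 for the broadly expressed ones (4.41 to 9.42). The neuronal range lay inside the other, and the difference was -0.393. Over the 5 members with a peak in both replicates the means were 6.98 and 8.83, a difference of -1.86. The SD between replicates of single genes ran from 0.321 at Srsf7 to 2.01 at Elavl3, and no spread of the class means could be had from it. In replicate 1 the means were 6.49 (3 genes, 5.68 to 7.20) and 7.29 (3 genes, 4.41 to 8.98), and in replicate 2 they were 7.46 (3 genes, 6.48 to 9.43) and 8.43 (3 genes, 7.40 to 9.86). Without Stau2 the means were 6.98 and 6.69, which turned the sign of the difference. Peak widths also overlapped, with a median of 267.5 bp (201 to 355 bp) for neuronal and 272 bp (218 to 372 bp) for broadly expressed members. Genes are not replicates of a class, and 3 against 4 genes chosen for their peaks were not tested.

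At 5 of the 7 genes the summit lay at the promoter of a transcript that APPRIS marks as principal, within 99 bp of its TSS. Counting TSSs within 500 bp of each other as 1 promoter, the members had from 1 promoter (Hnrnpab) to 7 (Rbfox3). The nearest peaks to promoters that were not counted as bound lay 1155 bp away or farther, while the farthest that were counted lay 108 bp from a TSS of the nearer promoter (Stau2, replicate 1), so that no peak was close to the limit of 500 bp.

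**Figure D3:**
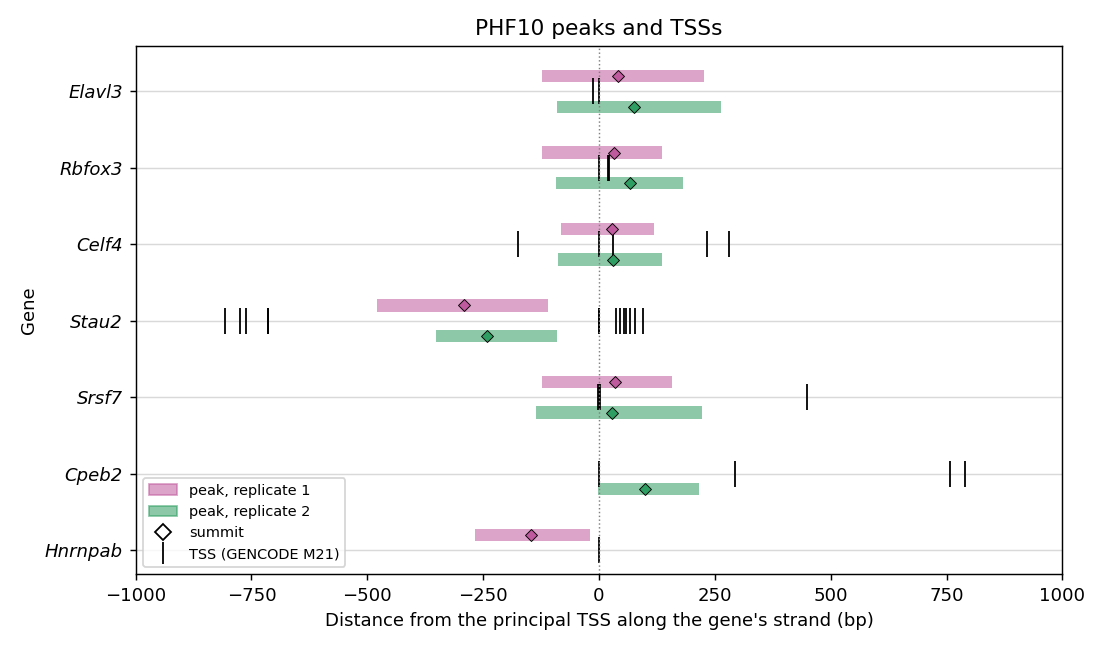
Peaks, summits and TSSs of the 7 genes along the gene's strand, in bp from the principal TSS nearest to the summit. Bars are peaks, diamonds summits and black ticks annotated TSSs within 1000 bp. Peaks covered the principal TSS at Elavl3, Rbfox3, Celf4, Srsf7 and Cpeb2, and lay upstream of it at Stau2 and Hnrnpab.

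Elavl3 (ENSMUSG00000003410.8, chromosome 9, 22015005 to 22052023, minus strand) has 2 promoters. The summits lay 41 and 75 bp downstream of the TSS of Elavl3-201 at 22052010, in the 5′ UTR, and both TSSs of this promoter were inside the peaks. The internal promoter at 22026374, of a single transcript, was 25372 bp from the nearest peak.
Rbfox3 (ENSMUSG00000025576.17, chromosome 11, 118489762 to 118911597, minus strand) has 10 transcripts from 9 TSSs in 7 promoters. The promoter at 118909550 to 118909572, with 4 transcripts and the principal one among them, held the summits, 11 and 45 bp downstream of its TSS at 118909550 and in the 5′ UTR. The start codon of the principal transcript lies 396168 bp downstream of the summit of replicate 1. The other 6 promoters had no peak, the nearest of them 1386 bp and 1903 bp from one.
Celf4 (ENSMUSG00000024268.16, chromosome 18, 25477632 to 25754157, minus strand) has 5 promoters. The summits lay in the promoter of 25753702 to 25754157, 27 and 31 bp downstream of the principal TSS at 25753983 and in the 5′ UTR, and the other 4 promoters, each of 1 transcript that is not annotated as protein-coding, had no peak within 500 bp.

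Stau2 (ENSMUSG00000025920.19, chromosome 1, 16228674 to 16520112, minus strand) has 17 transcripts from 3 promoters, and its peak lay between 2 of them. The summits were 291 and 240 bp upstream of the promoter at 16519211 to 16519307, with 11 transcripts and both principal ones, and 422 and 473 bp downstream of the promoter at 16520020 to 16520112, with 5 coding transcripts. They fell in an intron of those 5 transcripts and outside every other one, and neither peak covered a TSS. The nearest bases of the peaks lay 108 and 90 bp from a TSS. Of all 368 peaks within 500 bp of a TSS, 8.42% had their summit at least 240 bp from the nearest TSS, and 74.5% had it within 100 bp.
Cpeb2 (ENSMUSG00000039782.14, chromosome 5, 43233170 to 43289724, plus strand) has 3 promoters. The peak in replicate 2 held the TSS of the principal transcript Cpeb2-205 at 43233170, with its summit 99 bp downstream in the 5′ UTR and 194 bp before the start codon. The remaining promoters lay 1653 and 3930 bp from it.
Srsf7 (ENSMUSG00000024097.11, chromosome 17, 80200080 to 80207307, minus strand) had its summits 33 and 27 bp downstream of the TSS at 80207303, in the 5′ UTR. It was the one member whose peaks also covered the start codon, 68 and 74 bp past the summit. The gene Ttc39d starts on the opposite strand at 80207460. This TSS was outside both peaks, 190 and 184 bp from the summits, so that the peaks were also counted for Ttc39d and cannot be assigned to 1 of the 2 promoters by distance alone. No other gene started within 500 bp of a member's peak.
Hnrnpab (ENSMUSG00000020358.17, chromosome 11, 51600100 to 51606847, minus strand) starts all 3 of its transcripts at 51606847. The peak ended 20 bp before this TSS, with its summit 146 bp upstream, outside the gene. Among the 368 peaks within the window, 16% had a summit at least that far from a TSS, and the median distance was 47 bp.

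The 7 sites had from 49.1% to 73.4% GC (median 65.1%), and the 277 other sites near a TSS had a median of 67.1%. Observed to expected CpG was 0.867 at the median of the members and 0.916 over the other sites. Cpeb2 (73.4% GC), Elavl3 (72.6%) and Rbfox3 (69.4%) were GC-rich, Srsf7 (65.1%) and Hnrnpab (58.2%) were intermediate in GC with the highest CpG ratios, 1.03 and 1.15. Stau2 (54.9% GC, CpG ratio 0.594) and Celf4 (49.1%, 0.424) were the lowest of the members, at rank 251 and 270 of 284 sites by GC. A CpG island (at least 200 bp, 50% GC and a CpG ratio of 0.6, in repeat-masked sequence) was touched by all 7 sites and by 94.2% of the other sites. At Stau2 and Celf4 the summit was outside the island, so that 5 of 7 had it inside, beside 248 of the 277 other sites.

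**Figure D4:**
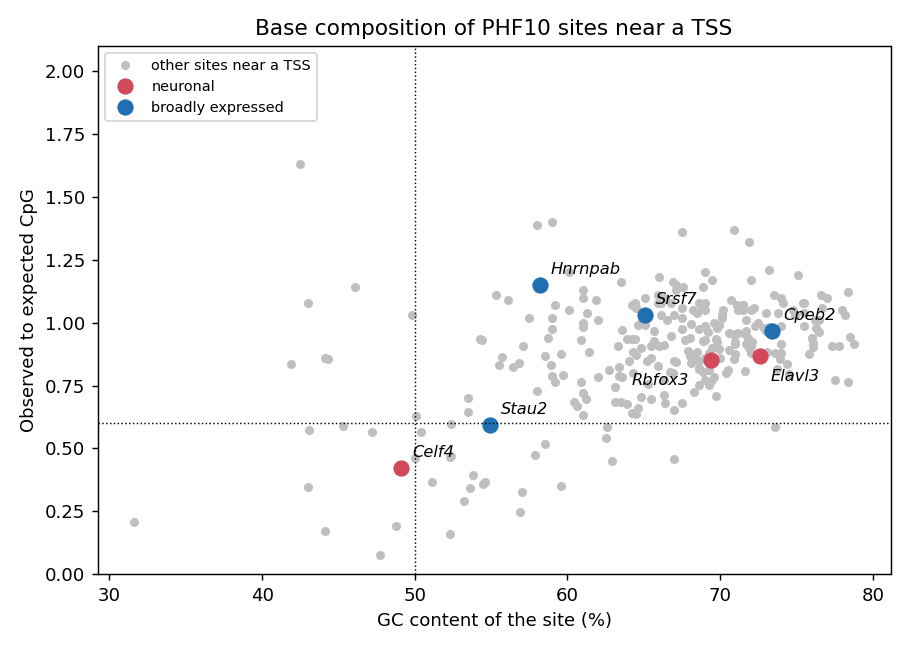
Observed to expected CpG against GC content of the 284 PHF10 sites within 500 bp of a TSS (grey, other sites; red, neuronal members; blue, broadly expressed members). Dotted lines are the limits for a CpG island, and Celf4 and Stau2 lay below the CpG limit.

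The DNA near the summits of Stau2, Celf4 and Rbfox3 shared a feature that had no part in the choice of the genes, a long GA repeat. It was noticed when the sequences were printed and was then counted everywhere, so it is given as a description. Within 150 bp of the summit (a window of 301 bp), the longest run of GA, read on either strand, was 55 and 42 copies in replicates 1 and 2 at Stau2, 33 and 33 at Rbfox3 and 21 and 21 at Celf4. At Stau2 both counts are of the same run, which the window of replicate 2 cuts short. The middles of these runs lay 38 to 109 bp from the summits, and none of the runs covered a summit. Elavl3, Srsf7 and Hnrnpab had 2 copies at most and Cpeb2 1. With at least 6 copies as the limit, 3 of the 7 member sites held a run, and 24 of the 276 other sites near a TSS on nuclear chromosomes did (8.70%). By peaks the numbers were 6 of 12 and 37 of 354 (10.5%), and around the 93526 TSSs of protein-coding genes 957 windows of the same width held one (1.02%), with 0.476% for TSSs in a CpG island. At least 6 copies of CA, counted in the same way, were found in 1.69% of the other peaks and around 1.59% of the TSSs, and Celf4 held one.

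**Figure D5:**
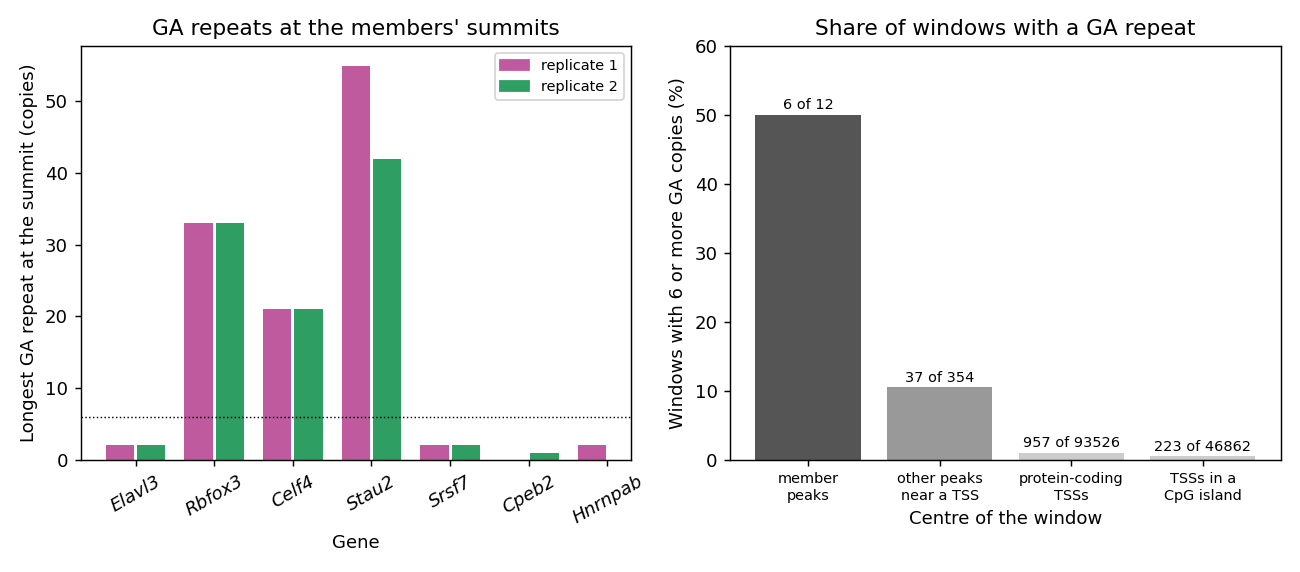
Longest GA repeat within 150 bp of the summit at each member and replicate (left, in copies; dotted line, 6 copies) and the share of 301-bp windows with at least 6 copies (right, in percent, with counts above the bars). Stau2, Rbfox3 and Celf4 had 21 to 55 copies, and GA runs occurred in 10.5% of other PHF10 peaks near a TSS and around 1.02% of TSSs.

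Because the authors kept only reads that aligned to 1 place, the uniqueness of each site was counted. All 100-bp stretches over the sites of Elavl3, Rbfox3, Celf4, Cpeb2, Srsf7 and Hnrnpab occurred exactly 1 time in the chromosomes of mm10. At Stau2 94.9% did, 464 of 489, and the remaining stretches occurred in up to 1556 places. The median over other sites near a TSS was 100%. Inexact matches and reads trimmed to less than 100 bp were not covered by this count. The IgG background used at Stau2, Rbfox3 and Celf4 was the genome-wide level of 1.85 fragments in both replicates. This is the lowest value the background can take, and every member but Elavl3 had it. It therefore does not give the IgG count at the repeats themselves. Whether the repeat itself had a part in the peaks was not tested.

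Core promoter elements were searched for by their letters, on both strands, from 250 bp before to 50 bp after the TSS nearest to the summit. In this paragraph, all promoters are the same windows at the 93526 TSSs of protein-coding genes, not grouped by distance. These windows can overlap, and genes with more TSSs count more. GGGCGG (the GC box) was found at 7 of 7 members, in 38.5% of all promoters of protein-coding genes, in 67.5% of those in a CpG island and in 72.5% of the promoters at the other PHF10 sites. TATAAA was found at Elavl3 and Hnrnpab, and in 11.5% of all promoters, 4.88% of those in an island and 13.7% of those at other PHF10 sites. It began at position -29 from the TSS at Hnrnpab and at -46 from the TSS nearest to the summit at Elavl3, on the gene's strand in both. CCAAT was also found at Elavl3 and Hnrnpab (34.8% of all promoters), at -79 in Elavl3 and at -227, -118 and -75 in Hnrnpab. CCGGAAG (an ETS motif) was found at Srsf7 alone of the members, and in 10.4% of all promoters. The CRE motif TGACGTCA, the E-box CACGTG, the YY1 motif AAGATGGC and the palindromic NRF1 motif were at none of the 7, and in from 1.03% to 7.06% of all promoters. Matches could overlap, as the GC boxes of Cpeb2 did, and a match of letters is not evidence of a bound factor.

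Paralogs of the members were counted from a list of 97 RNA-binding protein symbols, written with earlier results of these data known, of which 96 were annotated as protein-coding. A peak within 500 bp of a TSS was found at 9 of the 96, of which 7 were the members and fixed by the choice, so nothing is read from their share. Of the 89 genes outside the members 2 had one, Btg2 among them, beside 1.36% of the 21951 protein-coding genes. These genes too were listed with earlier results known, so neither this share nor those by replicate below are read as a result. Each of the 7 families had exactly 1 bound gene, the member itself, whose peak was fixed by the choice. Within each family 0 of the other genes had a peak, beside 1.36% of all protein-coding genes, and nothing is read from this. Elavl3 was the bound gene of 4 ELAVL genes, Rbfox3 of 3 RBFOX genes, Celf4 of 6 CELF genes, Cpeb2 of 4 CPEB genes, Stau2 of 2 Staufen genes, Hnrnpab of 20 hnRNP genes and Srsf7 of 11 SR protein genes. Of their paralogs, the nearest to any peak was Srsf9, 26012 bp away.
Btg2, an antiproliferative protein that acts with mRNA deadenylases, had a fold of 6.12 (4.04 to 8.94) and 6.74 (4.35 to 10.0) in replicates 1 and 2, with summits 49 and 41 bp downstream. By replicate, 2 of the 89 genes outside the members had a peak in replicate 1, beside 1.1% of protein-coding genes, and 1 in replicate 2, beside 0.638%. With a peak required in both replicates it was 1 of 89, beside 0.378%. Occupancy below the p threshold of the authors' calls was not detectable at the paralogs.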

How the data were processed

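PHF10 was profiled by ChIP-seq in 2 brain samples, with 1 IgG library as control. Reads were trimmed by the authors with Cutadapt, aligned with Bowtie version 1 to mm10 (GRCm38), kept where they aligned to 1 place and cleared of duplicates with Picard. Peaks were called by the authors with MACS2 against IgG in each replicate, with reads extended to 200 bp and blacklisted peaks discarded. Peaks past a −log10 p of 5 were deposited by the authors. The score deposited by the authors is −log10 p times 10, rounded down, and was not used. The fold enrichment ratio over IgG was computed by the authors with MACS2, as were the deposited −log10 p-values and q-values. Read depth is known only relative to IgG. All peaks were used, and sites were peaks of both replicates merged where they shared at least 1 bp.

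Fragments at summits were solved from fold and p. In simulated data 250 of 250 summits gave back the fragments drawn. The draws did not reach down to the lowest summits of the lists (15 fragments in replicate 1 and 13 in replicate 2) or to Hnrnpab (16). The simulated backgrounds had the form that the solving assumes. The search for peaks near TSSs was tested on simulated data too (93 of 93 planted peaks found, 0 extra). Sequences were read from the NCBI GRCm38.p6 genome, and the 4 RefSeq promoters listed for members were equal to it. Members, lists and families were chosen with earlier results of these data known. Genes are named by a fixed rule: the members, list and marker genes with a peak, genes starting within 500 bp of a member's peak, and the closest site by fold for each member with both replicates. Srsf9, the marker examples and the GA repeats were chosen after values were seen. No test was made, since the replicates form 1 group. The peak of 1 further listed gene is not reported here. Alternatives covered windows, TSS sets, stringency and replicates. Python 3.11.15, numpy 2.4.6, scipy 1.17.1, pandas 2.3.3, pysam 0.24.0 and matplotlib 3.10.9 were used.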

Additional observations from a re-analysis of the deposited data

How the results depend on the processing

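Of 43 alternatives, 38 kept the count within 1.5 times of the value reported or moved the difference by less than the pooled SD of fold between replicates (1.01), which Elavl3 dominates. The other 5 include the plain ratio and −log10 p, which are on other scales and were counted as changed whatever their size. The number of members with a peak was 6 without either replicate (Hnrnpab lost without replicate 1, Cpeb2 without replicate 2), 6 at −log10 p of at least 7 and 5 for peaks in both replicates, and stayed at 7 with windows of 200 or 1000 bp, the summit in place of the peak, coding TSSs or q of at most 0.05. The number of protein-coding genes with a peak fell from 298 to 83 for peaks in both replicates and was 140 to 241 with 1 replicate left out. The difference in fold between neuronal and broadly expressed members (-0.393) was -1.86 for members with a peak in both replicates, -1.09 as a plain ratio and 0.0996 on the −log10 p scale, and -0.961 to -0.8 with 1 replicate left out. Without Stau2, chosen after seeing the data, it was 0.289, so its sign depends on 1 gene. This change of sign is counted among the 38, because the limit of 1.01 is wider than the difference itself. The limit is a spread of single genes between replicates and not a spread of the class means. Runs of at least 10 GA copies, or 100 bp on each side of the summit, both chosen after seeing the data, left 3 members with a run. No paired analysis was possible because the PHF10 replicates form a single group with 1 IgG library. Depth limits the lists to promoters with at least 14 fragments in replicate 1 and 12 in replicate 2 over the genome-wide background. Listed peaks were also at least 200 bp wide.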

Other observations

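Outside the 7 genes, peaks near a TSS with a run of at least 6 GA copies within 150 bp of the summit had a median fold of 6.15 in replicate 1 and 7.71 in replicate 2 (22 and 15 peaks), and the other peaks near a TSS had 5.68 and 6.16. Repeat-masked bases made up over 25% of the 301-bp window at 12.4% of all 354 such peaks with or without a run, around 10.4% of protein-coding TSSs and around 2.9% of TSSs in a CpG island. The 12 member peaks had a median fold of 6.84 with a run and 7.71 without, over both replicates together. Those with a run were the peaks of Stau2, Rbfox3 and Celf4, each counted in both replicates. The genes were chosen by their peaks, so nothing is read from these 2 medians. Values are given without a test, since the run was noticed in the members' peaks.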
